A study of Homo sapiens with 6 samples.

Results

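The ligands and receptors that steer growing axons were examined in SK-N-AS cells, an established human neuroblastoma line, in cultures with and without induction of MYCN. The members were the protein-coding genes whose symbols belong to the semaphorin (SEMA3 to SEMA7), plexin (PLXN), neuropilin (NRP), EPH receptor, ephrin (EFN), SLIT, ROBO, netrin (NTN) and UNC5 families, and DCC. The rule found 69 of the 19928 protein-coding genes in the files, 35 in ligand families and 34 in receptor families. The cells had been transfected stably with the TR system, in which a repressor holds MYCN off until tetracycline is added, and single clones had been selected and kept in 500 µg/ml G418 and 5 µg/ml blasticidin. The 3 control libraries, labelled ETOH, and the 3 MYCN-induced libraries, labelled Tet and given 2 µg/ml tetracycline, were collected after 120 h. No tetracycline-treated cells without the inducible MYCN gene were analysed here, so an effect of tetracycline and one of MYCN cannot be told apart. Ribosomal RNA had been depleted, and the deposited values are read pairs counted per gene, which total 64500589 to 102249336 per library. A pair on several genes was shared between them, and no strand option was set, so reads of overlapping genes on opposite strands cannot be separated. Because the replicates are separate cultures of 1 line, p-values measure the spread between cultures.

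Axon guidance genes encode secreted or membrane-bound cues and the receptors that read them at the growth cone, where they turn the actin cytoskeleton towards or away from a source. Semaphorins signal through plexins, with neuropilins as co-receptors for the secreted class. Ephrins and EPH receptors signal in both directions at cell contacts. SLIT proteins repel through ROBO receptors, and netrins such as NTN1 act through DCC and the UNC5 receptors. Many of these genes guide the neural crest cells from which the sympathetic nervous system and neuroblastoma arise.

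Levels are given as CPM, counts scaled to a common library total with TMM normalization, for comparisons of a gene between libraries. TPM, which also divides by exon length, is used where genes are compared with each other and for the sums of families. TPM was not TMM-normalized, so comparisons of these sums between libraries can differ from those by CPM. Log2 fold changes are of induced over control cells from edgeR's quasi-likelihood test, with p-values adjusted by Benjamini-Hochberg over all 29086 tested genes. MYCN itself was at 30.3, 35.5 and 32.4 CPM in the control libraries and 211, 221 and 199 CPM in the induced libraries, so the labels held in every library. MYCN-induced replicate 3 stood apart, with a score of 40.2 on the first principal component, where induced replicates 1 and 2 both scored 6.3 and the controls scored from -24.2 to -12.7. The adrenergic markers of neuroblastoma HAND2 and GATA3 were expressed in every library, at 349 to 559 and 99.9 to 144 CPM. The mesenchymal markers summed to 127 to 145 TPM in control and 144 to 173 TPM in induced cells. Of the 5 tested, 3 had a log2 fold change above 0 and 2 below, with a median of 0.15. By the test 0 were higher and 1 was lower (FN1), and CD44 had 0 counts in every library. The 3 leukocyte markers summed to at most 4.40 TPM, with CD3E at 0, and the 3 endothelial markers to at most 0.247 TPM. The 4 Schwann cell markers summed to 3.53 to 3.73 TPM in control and 2.78 to 5.12 TPM in induced cells, and the 3 epithelial markers to 30.8 to 37.9 TPM, where KRT18 gave most of the level. What part any of these had in the results was not tested, and in bulk RNA fewer cells of a type and less RNA per cell cannot be told apart.

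Of the 69 members, 60 passed the count filter, and 8 were lower and 0 higher in MYCN-induced cells. The 8 were PLXNA4, NTN4, SEMA4G, SEMA4F, NRP2, EPHB2, SLIT2 and SEMA3A, and 5 of them are ligands. They are 13.3% of the tested members, where 2.38% of all tested genes were called lower and 1.02% higher. Among tested protein-coding genes 2.88% were called lower and 1.55% higher. DESeq2 called 0 members higher and 13 lower, beside 3.11% and 4.12% of all genes it tested, and at an unadjusted p under 0.05 edgeR gave 2 higher (SLIT1 and UNC5B) and 25 lower, beside 8.13% and 10.6% of all tested genes. The median log2 fold change of the tested members was -0.25, against -0.000 for all tested genes and 0.026 for tested protein-coding genes. It lay below 0 for 43 of the 60 (71.7%), as it did for 50.1% of all tested genes. In 26 members (43.3%) all 3 induced libraries lay under all 3 controls, which held for 14.7% of all tested genes and 14.5% of the protein-coding ones. The opposite order held for 4 members (6.67%), EPHA8, PLXNC1, SLIT1 and UNC5B, against 11.5% and 16.0%. Over the ligand families 27 of 32 tested members had a log2 fold change below 0 (median -0.37), and over the receptor families 16 of 28 (median -0.17). The difference between ligands and receptors was not tested.

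**Figure D1:**
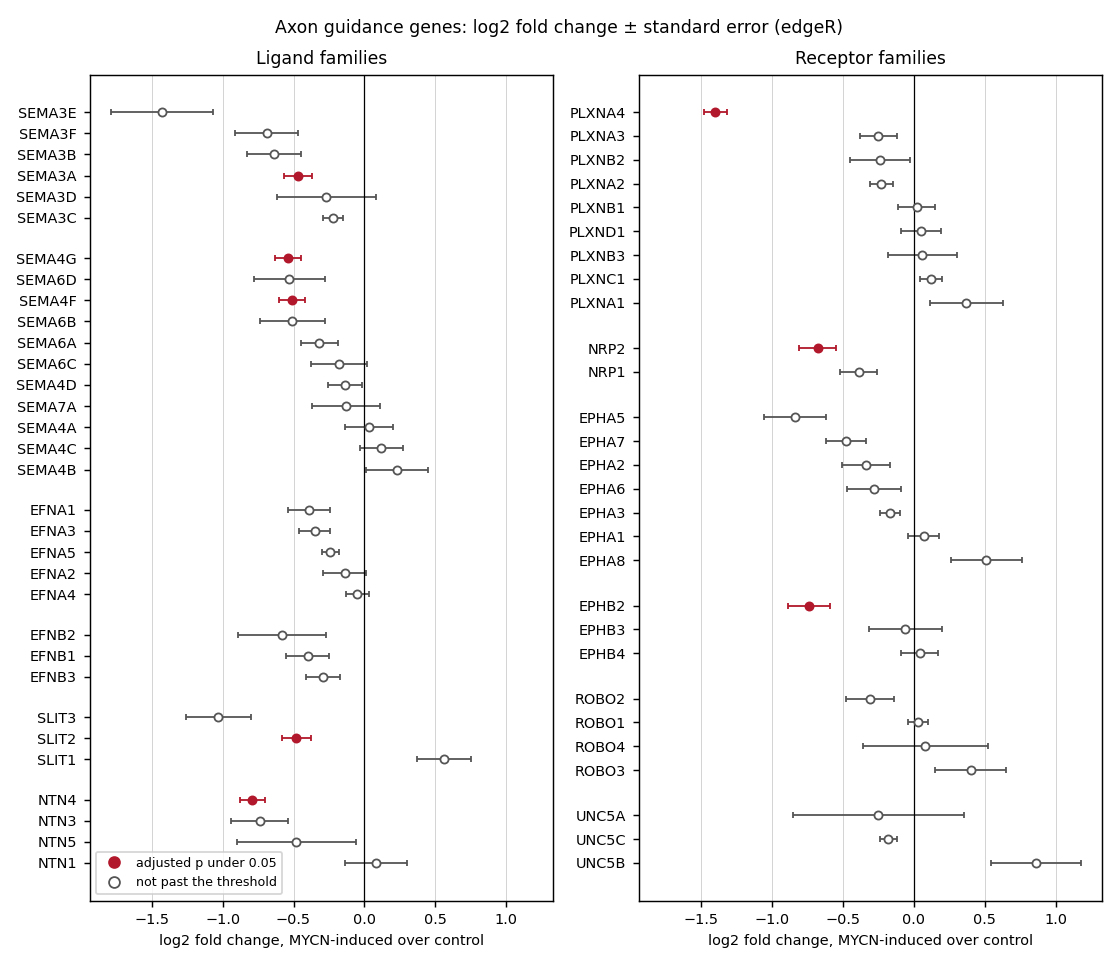
Log2 fold change of each of the 60 tested members in MYCN-induced over control cells (x axis), with its standard error as a bar, by family. Filled red points are the 8 members with an adjusted p under 0.05, and all 8 lie to the left of 0, from PLXNA4 at -1.40 to SEMA3A at -0.47.

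In control cells the level was concentrated in a few members. UNC5C, a netrin receptor that mediates repulsion, was the highest at 147, 134 and 124 TPM, and EPHA3, a receptor for A-type ephrins, was next at 132, 115 and 108 TPM. The ranges of these 2 overlapped, and both stood well above ROBO1 (34.3 to 39.7 TPM), EFNA5 (34.1 to 38.7 TPM), EPHA7 (32.1 to 37.1 TPM) and SEMA3A (30.6 to 34.5 TPM), whose ranges ran into each other. NRP1 followed at 22.9 to 27.9 TPM. These 7 genes held 59.3% of the summed TPM of all members. In all, 17 members had a control mean of at least 10 TPM and 25 lay under 1 TPM. The 9 members that did not pass the filter were DCC, UNC5D, SEMA5A, SEMA5B, SEMA3G, EPHA4, EPHA10, EPHB1 and EPHB6.

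**Figure D2:**
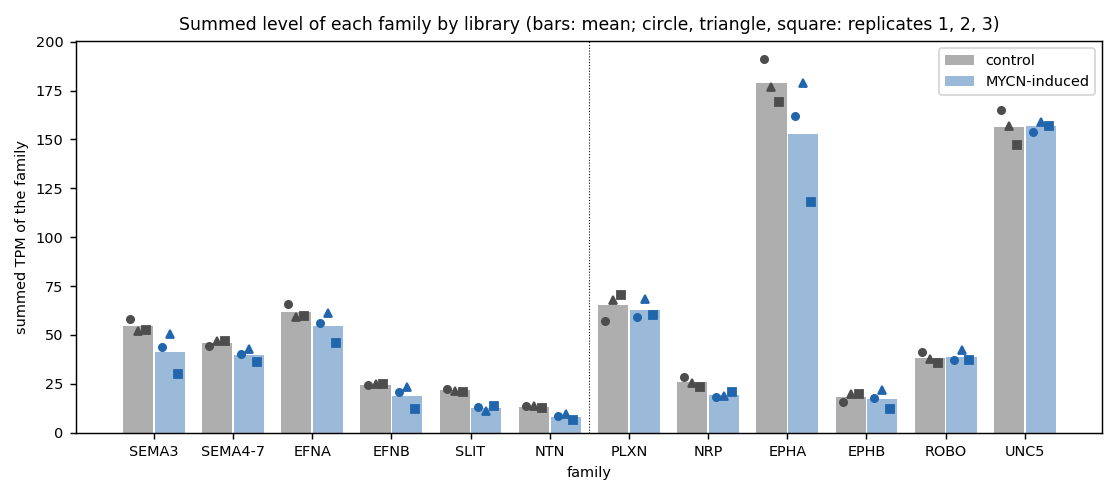
Summed TPM of each family (y axis) in control and MYCN-induced cells, with bars for the mean of 3 libraries and a circle, triangle or square for replicates 1, 2 and 3. The SEMA3, SEMA4-7, EFNB, SLIT, netrin and neuropilin sums of all induced libraries lie under those of all controls. The EFNA, plexin, EPHA, EPHB, ROBO and UNC5 sums overlap. By TMM-normalized CPM, which is not drawn, the EFNA and EPHA sums of all induced libraries also lie under those of all controls.

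The netrins are secreted cues related to laminins. NTN4, the most abundant netrin in these cells, fell to 58.0% of its control level. The gene lies on chr12:95657807-95791189, minus strand (GRCh38). It was at 31.0, 31.6 and 29.9 CPM in control and at 19.0, 18.4 and 16.2 CPM in induced cells (log2 fold change -0.79, standard error 0.09, adjusted p = 0.00603). The 2 groups lay far apart, and each varied by less than 3 CPM. NTN3, at about 1 CPM, was at -0.74 on the log2 scale (adjusted p = 0.0988). NTN1, the classical attractant of commissural axons, was at 1.44, 2.58 and 2.39 CPM and at 2.42, 2.25 and 2.10 CPM, with overlapping groups (log2 fold change 0.08, adjusted p = 0.890). NTN5 was at 0.190 and 0.132 CPM on average. The 4 netrins together summed to 13.7, 13.7 and 12.5 TPM in control and 8.55, 9.29 and 6.33 TPM in induced cells.

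Of the netrin receptors in the families of the rule, DCC, an attractive receptor, had 0 counts in all 6 libraries, as had UNC5D. A count of 0 allows up to 0.0465 CPM in the smallest library, taking 3 counts as the limit, and this covers counting error only. NEO1, a DCC relative outside the rule, was at 109, 104 and 99.6 CPM in control and 110, 105 and 113 CPM in induced cells. Its groups overlapped (log2 fold change 0.07, adjusted p = 0.633). UNC5C was at 906, 880 and 850 CPM in control and 796, 764 and 774 CPM in induced cells. These groups did not overlap, but the difference was small and did not pass the test (log2 fold change -0.18, standard error 0.06, adjusted p = 0.181). UNC5B, which is also known as a dependence receptor, had a log2 fold change of the opposite sign. It was at 73.1, 93.4 and 98.4 CPM in control and 117, 105 and 260 CPM in induced cells (log2 fold change 0.86, standard error 0.32, adjusted p = 0.207). The highest value came from MYCN-induced replicate 3, and without that library the log2 fold change was 0.34 (adjusted p = 0.173). UNC5A averaged 0.157 and 0.128 CPM. The summed level of the UNC5 family was 165, 157 and 147 TPM in control and 154, 159 and 157 TPM in induced cells. By CPM the sum was 979, 973 and 949 in control and 913, 869 and 1033 in induced cells, with the highest value in MYCN-induced replicate 3.

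SLIT proteins are large secreted repellents. SLIT2 (chr4:20251905-20620561, plus strand) fell to 71.7% of its control level, from 65.4, 58.8 and 60.1 CPM to 48.1, 38.3 and 45.7 CPM (log2 fold change -0.48, standard error 0.10, adjusted p = 0.0432). SLIT3, the most abundant SLIT gene in control cells, was at 100, 110 and 113 CPM there and 46.8, 36.5 and 74.9 CPM in induced cells. By mean TPM, SLIT2 was above SLIT3 in induced cells (6.51 against 5.88). The groups of SLIT3 were further apart than those of SLIT2, but its induced libraries differed more among themselves. Its log2 fold change of -1.03 (standard error 0.23) had an adjusted p of 0.0574. Without MYCN-induced replicate 3, the highest of the induced values, it was -1.37 (adjusted p = 0.00275). Its adjusted p was 0.00113 with DESeq2, and over 13 alternatives ran from 0.00113 to 0.207. SLIT1 was low, at 0.420, 0.474 and 0.404 CPM in control and 0.693, 0.698 and 0.531 CPM in induced cells (log2 fold change 0.56, adjusted p = 0.170). The SLIT family as a whole summed to 22.5, 21.3 and 21.0 TPM in control and 13.0, 11.2 and 13.4 TPM in induced cells.

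SLIT2 and SLIT3 each carry a copy of the microRNA gene miR-218 in an intron on the same strand, MIR218-1 in SLIT2 on chromosome 4 and MIR218-2 in SLIT3 on chromosome 5. The mature sequences below, from RefSeq on GRCh38.p14, are shown because both host genes are among those discussed. Capitals mark the seed, bases 2 to 8. The 5p arm is the same from both copies, while the 3p arms differ.
hsa-miR-218-5p (chr4:20528299-20528319 plus strand, and chr5:168768211-168768231 minus strand): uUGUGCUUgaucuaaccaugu
hsa-miR-218-1-3p (chr4:20528342-20528363, plus strand): aUGGUUCCgucaagcaccaugg
hsa-miR-218-2-3p (chr5:168768168-168768189, minus strand): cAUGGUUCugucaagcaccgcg
Counts at the hairpin genes, which were chosen after the values were seen, are of reads over the hairpin's position and do not measure mature microRNA. MIR218-1 had 35.5, 25 and 24.5 counts in control and 10.5, 19 and 17 in induced cells (log2 fold change -0.61, adjusted p = 0.263). MIR218-2 had 68.5, 79 and 103 counts in control and 19, 37 and 62 in induced cells (log2 fold change -0.83, adjusted p = 0.235). After scaling for library size, MIR218-1 was at 0.237 to 0.344 CPM in control and 0.154 to 0.204 CPM in induced cells, without overlap. The groups of MIR218-2 overlapped, at 0.649 to 1.02 CPM and 0.293 to 0.731 CPM, and neither gene passed the test.

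None of the ROBO receptors, which bind SLIT proteins, passed the test. ROBO1, by far the most abundant, was at 254, 247 and 242 CPM in control and 237, 247 and 276 CPM in induced cells, with overlapping groups (log2 fold change 0.03, standard error 0.07, adjusted p = 0.868). ROBO2 was at 7, 6.00 and 6.74 CPM and at 4.65, 4.53 and 6.77 CPM (log2 fold change -0.31, adjusted p = 0.392; -0.51 and 0.0294 without MYCN-induced replicate 3). ROBO3, which modulates SLIT sensitivity at the midline, was at 2.31, 2.53 and 2.92 CPM and at 2.57, 2.77 and 4.86 CPM (log2 fold change 0.40, adjusted p = 0.450). ROBO4, the receptor known from blood vessels, was under 0.21 CPM in every library. Whether SLIT and ROBO genes differ from each other in their change was not tested.

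Class 3 semaphorins are secreted and mostly repel axons. All 6 tested genes of the class had a log2 fold change below 0, with a median of -0.56, and 1 passed the test. SEMA3A (chr7:83955777-84492724, minus strand), the most abundant, fell to 72.4% of its control level, from 185, 174 and 181 CPM to 138, 141 and 112 CPM (log2 fold change -0.47, standard error 0.10, adjusted p = 0.0436). The groups did not overlap, and MYCN-induced replicate 3 was the lowest library. SEMA3E, the ligand of PLXND1, had the lowest log2 fold change of all members at -1.43 (standard error 0.36), but at a low level and with an adjusted p of 0.0832. It was at 1.91, 1.43 and 1.74 CPM in control and 0.786, 0.848 and 0.259 CPM in induced cells. SEMA3F and SEMA3B, which signal through NRP2 among other receptors, had log2 fold changes of -0.69 (adjusted p = 0.148) and -0.64 (adjusted p = 0.114). For both, all induced libraries lay under all controls. SEMA3C was at 45.9, 43.4 and 45.1 CPM and at 37.4, 37.1 and 40.5 CPM, again without overlap (log2 fold change -0.22, adjusted p = 0.136). SEMA3D depended on 1 library, with 24.8, 33 and 10.3 CPM in the induced cells against 29.9, 24.8 and 27.5 CPM in control. Its log2 fold change was -0.27 (adjusted p = 0.738), but 0.09 without MYCN-induced replicate 3 (adjusted p = 0.733). SEMA3B-AS1, an RNA beside SEMA3B on the opposite strand that does not overlap it, was chosen after its values were seen. It was lower at 0.262 against 0.621 CPM (log2 fold change -1.26, standard error 0.24, adjusted p = 0.0362). It passed in 5 of the 11 alternatives that gave it a value, with adjusted p-values from 0.00368 to 0.160. Of the other RNAs named as antisense or intronic at member loci that were looked at, none passed the test. EPHA5-AS1 was at -0.84 on the log2 scale (adjusted p = 0.135), EPHA1-AS1 at -0.03 (adjusted p = 0.956) and SLIT2-IT1 at 0.69 (adjusted p = 0.340). SLIT1-AS1 did not pass the count filter.

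Most semaphorins of classes 4 to 7 are anchored in the membrane, and 2 of the 11 tested were lower. SEMA4G (chr10:100969518-100985871, plus strand) fell to 68.6% of control, from 28.8, 28 and 26.0 CPM to 19.5, 17.4 and 19.9 CPM (log2 fold change -0.54, standard error 0.09, adjusted p = 0.0206). It shares 27.4% of its exon bases with MRPL43 and another gene on the opposite strand, so part of its count is uncertain. MRPL43 itself was at 54.1 and 57.9 CPM on average (log2 fold change 0.10, adjusted p = 0.725). SEMA4F (chr2:74654228-74683853, plus strand), which shares no exon bases with another gene, fell to 70.4% of control, from 15.3, 14.9 and 14.9 CPM to 11.2, 9.85 and 10.7 CPM (log2 fold change -0.51, standard error 0.09, adjusted p = 0.0285). SEMA4C, the most abundant of these classes and a ligand of PLXNB2, was at 38.2, 50.0 and 57.1 CPM and at 48.7, 49.4 and 60.2 CPM (log2 fold change 0.12, adjusted p = 0.727). SEMA4B was at 7.06, 8.52 and 9.72 CPM and at 8.14, 8.18 and 13.4 CPM, its highest value again in MYCN-induced replicate 3 (log2 fold change 0.23, adjusted p = 0.625). The other 7 tested genes had log2 fold changes from -0.53 (SEMA6D) to 0.03 (SEMA4A), and none passed the test.

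Plexins are the receptors that carry the semaphorin signal into the cell. PLXNA4, which responds to SEMA3A together with neuropilin and to class 6 semaphorins directly, showed the clearest change of all members. It lies on chr7:132123332-132648688 of GRCh38, minus strand, and its exons share no bases with another gene. It was at 24.8, 24.0 and 25.2 CPM in control and at 9.65, 8.76 and 9.66 CPM in induced cells, which is 37.9% of the control level. The libraries of each condition lay within 2 CPM of each other. On the log2 scale the change was -1.40 (standard error 0.08, adjusted p = 0.00106), and only 5 of the 29086 tested genes had a smaller p. The other A-type plexins did not pass the test. PLXNA2, the most abundant plexin per length in control cells, was at 148, 152 and 148 CPM and at 131, 115 and 137 CPM (log2 fold change -0.23, standard error 0.08, adjusted p = 0.175). PLXNA1 ran from 64.3 to 111 CPM and from 87.1 to 160 CPM, with overlapping groups (log2 fold change 0.37, adjusted p = 0.502), and PLXNA3 was at -0.25 on the log2 scale (adjusted p = 0.352). PLXNC1 was at 15.7, 15.1 and 14.2 CPM and at 16.1, 16.1 and 16.7 CPM, a small difference without overlap (log2 fold change 0.12, adjusted p = 0.492). The PLXNB and PLXND1 genes lay between -0.24 and 0.06. Since PLXNA4 was a minor part of the plexins, at 2.47 ± 0.130 TPM (SD, n = 3) in control cells, the family sum of 57.2 to 70.3 TPM in control overlapped that of 59.3 to 68.6 TPM in induced cells.

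Both neuropilins, the co-receptors of class 3 semaphorins, were under their control range in all induced libraries. NRP2 (chr2:205681990-205798133, plus strand) was at 4.14, 4.07 and 3.56 CPM in control and 2.33, 2.26 and 2.74 CPM in induced cells, a fall to 62.3% (log2 fold change -0.68, standard error 0.13, adjusted p = 0.0360). NRP1, the co-receptor for SEMA3A and the more abundant, was at 185, 175 and 168 CPM and at 124, 115 and 164 CPM. Its induced replicate 3 lay close to the controls, and the log2 fold change of -0.39 (standard error 0.13) had an adjusted p of 0.158. Without that library it was -0.55 (adjusted p = 0.00460).

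**Figure D3:**
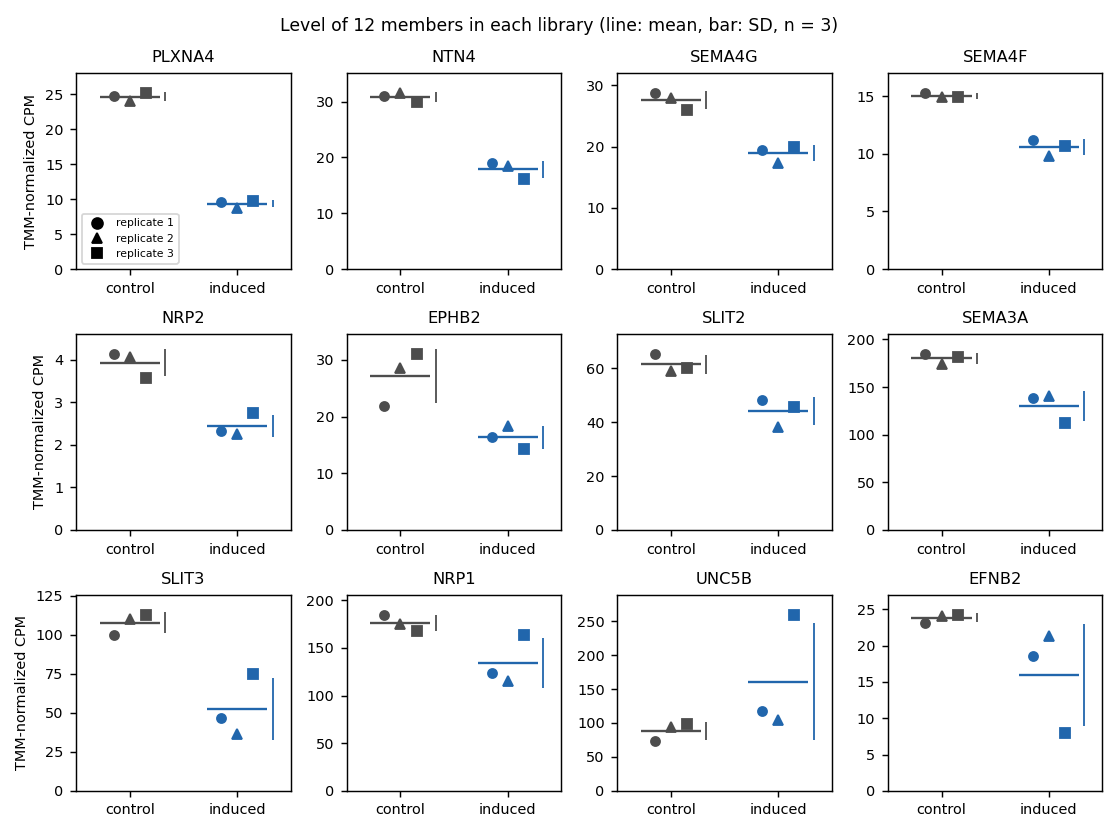
TMM-normalized CPM (y axes, from 0) of 12 members in the 3 control and 3 MYCN-induced libraries, with a line for the mean, a bar for the SD (n = 3) and a symbol for each replicate. The upper 8 panels are the members with an adjusted p under 0.05, in which no induced library reaches a control, and in the last row MYCN-induced replicate 3 differs from the other induced libraries in SLIT3, NRP1, UNC5B and EFNB2.

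EPH receptors are receptor tyrosine kinases that bind ephrins on neighbouring cells. EPHB2 (chr1:22710839-22921500, plus strand) was the only one past the threshold, and fell to 60.0% of control, from 21.9, 28.6 and 31.1 CPM to 16.4, 18.3 and 14.3 CPM (log2 fold change -0.74, standard error 0.15, adjusted p = 0.0422). Relative to their mean, the controls differed more among themselves than for the other members called. EPHB4, the most abundant EPHB gene, was at 30.6, 41.7 and 41.7 CPM and at 38.8, 41.9 and 36.2 CPM (log2 fold change 0.04, standard error 0.13, adjusted p = 0.918), and EPHB3 was at -0.06 on the log2 scale (adjusted p = 0.929). Among the EPHA genes, EPHA3 was at 502, 465 and 454 CPM and at 434, 439 and 393 CPM, without overlap (log2 fold change -0.17, standard error 0.07, adjusted p = 0.274). EPHA7 was at 353, 334 and 338 CPM and at 265, 280 and 188 CPM (log2 fold change -0.48, standard error 0.14, adjusted p = 0.112; -0.32 and 0.0151 without MYCN-induced replicate 3). EPHA5, at 1.53 CPM in control, was at -0.84 on the log2 scale (adjusted p = 0.0867). EPHA2 and EPHA6 had log2 fold changes of -0.34 and -0.28, EPHA1 of 0.07 and EPHA8, at under 0.4 CPM, of 0.51.

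All 8 ephrins, the ligands of these receptors, were tested. None passed the test, and all 8 had a log2 fold change below 0, between -0.58 and -0.05. EFNA5, the most abundant, was at 128, 121 and 125 CPM in control and at 106, 106 and 106 CPM in induced cells. The induced libraries were almost equal and all under the controls, and the log2 fold change of -0.24 (standard error 0.06) had an adjusted p of 0.0779. Over the 13 alternatives its adjusted p ran from 0.0349 to 0.261, and it was under 0.05 in 4 of them, among them DESeq2 (0.0400). EFNB2 was at 23.2, 24.1 and 24.3 CPM and at 18.6, 21.3 and 7.94 CPM. Its low value in MYCN-induced replicate 3 gave a log2 fold change of -0.58 (adjusted p = 0.366), and without that library it was -0.25 (adjusted p = 0.115). It also shares 36.4% of its exon bases with a gene on the opposite strand. EFNB1, the most abundant B-type ephrin per length, was at 14.8, 19.3 and 20.7 CPM and at 14.0, 15.6 and 11.8 CPM, with overlapping groups (log2 fold change -0.40, adjusted p = 0.210). EFNA4 ran from 13.2 to 14.6 CPM in control and from 13.2 to 13.6 CPM in induced cells, with overlapping groups. EFNA3 shares 43.9% of its exon bases with the readthrough gene EFNA4-EFNA3.

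How far these calls depended on single libraries was examined by leaving out each of the 6 in turn. PLXNA4 passed in all 13 alternatives to the fit, with adjusted p-values up to 0.0234, and NTN4 in 12, missing only without control replicate 2 (adjusted p = 0.0566). The other 6 members called were each lost in at least 5 alternatives. Without control replicate 1 there were 3 members lower (PLXNA4, NTN4 and EPHB2), without control replicate 2 there was 1 (PLXNA4), and without control replicate 3, MYCN-induced replicate 1 or MYCN-induced replicate 2 there were 2 each (PLXNA4 and NTN4). Over all tested genes the shares called lower in these fits were 0.674%, 0.316%, 0.488%, 0.746% and 1.04%. Without MYCN-induced replicate 3, 16 members were lower, beside 4.37% of all tested genes. That fit kept 7 of the 8, lost EPHB2 (adjusted p = 0.0563), and added SLIT3, NRP1, EFNA5, EPHA7, ROBO2, SEMA3C, SEMA3E, SEMA6C and SEMA6D. No member was higher in any of these fits, in which the shares of all tested genes called higher were 0.168%, 0.0722%, 0.110%, 0.251%, 0.598% and 3.64% in the order given. With library size only, upper-quartile normalization, no count filter, a mean of at least 1 CPM and protein-coding genes only, 8, 9, 10, 8 and 9 members were lower, beside 2.32%, 2.59%, 1.80%, 2.81% and 2.89% of the genes tested, and 0 were higher, beside 0.822%, 0.918%, 1.04%, 1.45% and 1.55%.

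**Figure D4:**
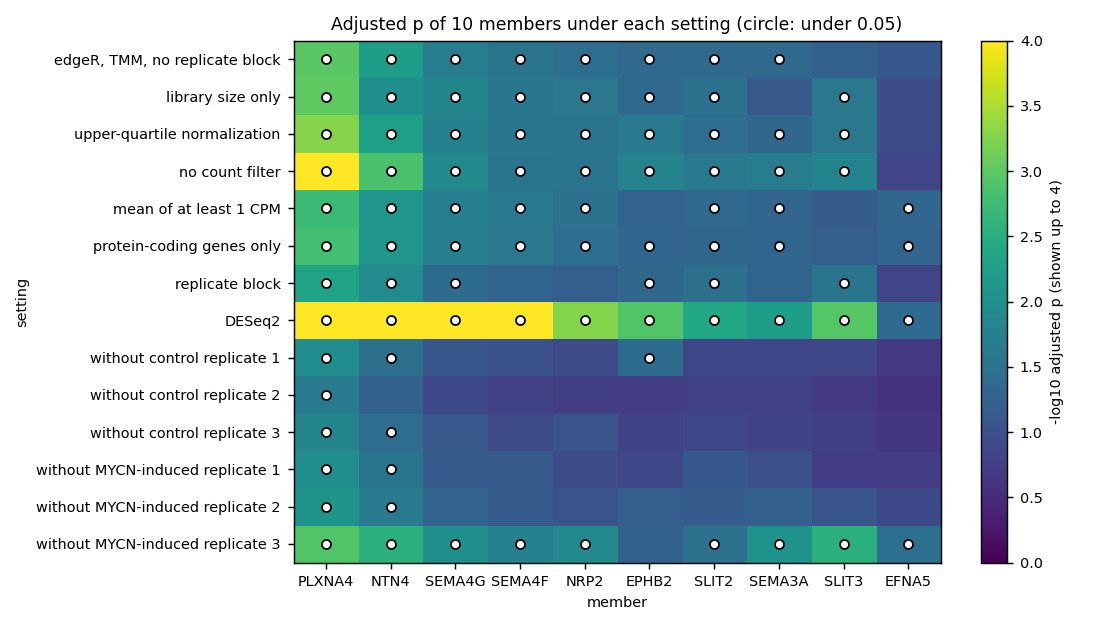
Adjusted p (colour, as -log10, shown up to 4) of 10 members, in columns, in the edgeR fit of the report and under 13 alternatives, in rows, with a circle where it was under 0.05. PLXNA4 carries a circle in every row, NTN4 in all but 1, and most other circles are missing where a control library or MYCN-induced replicate 1 or 2 was left out.

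Other genes of the pathway were taken from 2 lists written from general knowledge, with the families above left out. Of 38 co-receptors and modulators, 35 were tested, 2 were higher and 4 were lower (median log2 fold change -0.07). NFASC, an adhesion molecule of the axon initial segment, had the largest fall in the list, from 5.71, 5.49 and 5.87 CPM to 1.45, 1.37 and 1.20 CPM (log2 fold change -2.09, standard error 0.12, adjusted p = 0.00106). FLRT3, which binds UNC5 receptors and ROBO1, fell from 5.55, 5.35 and 5.10 CPM to 3.13, 2.75 and 3.48 CPM (log2 fold change -0.77, adjusted p = 0.0206). CNTN1, an adhesion molecule anchored to the axon surface, fell by 0.75 on the log2 scale (adjusted p = 0.0406), and DAG1, the dystroglycan gene, whose product binds SLIT proteins, fell by 0.42 (adjusted p = 0.0370). The 2 that rose were low in control cells. NRCAM, a relative of NFASC, was at 0.420, 0.508 and 0.503 CPM and at 1.48, 1.13 and 3.62 CPM (log2 fold change 2.12, standard error 0.44, adjusted p = 0.0442; 1.45 without MYCN-induced replicate 3). MET, a receptor tyrosine kinase that associates with B-type plexins, was at 0.573, 0.508 and 0.690 CPM and at 1.09, 1.11 and 1.59 CPM (log2 fold change 1.10, adjusted p = 0.0379). NFASC passed in all 13 alternatives to the fit, CNTN1 in 9, FLRT3 in 8, and DAG1 and NRCAM in 7 each. MET passed in 7 of the 12 that gave it a value.

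Of 75 intracellular effectors, 74 were tested, 1 was higher and 4 were lower (median log2 fold change -0.04). KALRN, a guanine nucleotide exchange factor that acts downstream of EPHB receptors, fell from 47.4, 46.8 and 46.7 CPM to 31.0, 28.3 and 27.4 CPM (log2 fold change -0.70, standard error 0.07, adjusted p = 0.00514). MICAL2, from a family of actin-oxidizing enzymes known from semaphorin signalling, fell from 68.8, 65.1 and 61.4 CPM to 43.1, 39.1 and 40.7 CPM (log2 fold change -0.67, standard error 0.07, adjusted p = 0.00596). TRIM9, a ubiquitin ligase that binds DCC, fell by 1.03 on the log2 scale (adjusted p = 0.0250). ABLIM1, an actin-binding protein, was at 63.2, 56.7 and 56.1 CPM and at 27.7, 30.9 and 13.0 CPM (log2 fold change -1.30, standard error 0.28, adjusted p = 0.0495). It passed in 5 of the 13 alternatives, with adjusted p-values up to 0.173. ENAH, which extends actin filaments at the growth cone, rose from 666, 678 and 671 CPM to 835, 831 and 797 CPM (log2 fold change 0.29, standard error 0.06, adjusted p = 0.0446). Both lists together had 3 of 109 tested genes higher and 8 lower, beside the 1.02% and 2.38% of all tested genes.

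MYCN binds the E-box CACGTG, which reads the same on both strands. RefSeq promoter windows, from 250 bases before to 50 after a start site, were on hand for 59 of the 69 members. The E-box occurred in 4 of their 91 windows (4.40%), against 7.26% of 35116 windows of all genes. None of the 4 genes was among the 8 members called. The sites are shown with 12 bases on either side (GRCh38.p14, the gene's strand, E-box in capitals) because they are the only matches in these windows.
EPHA8, chr1:22563328-22563357, plus strand: tgtgggcgtgcgCACGTGcggcggcggtgg
SEMA3E, chr7:83649167-83649196, minus strand: atgggagcgaggCACGTGgaccagaaatac
SEMA4D, chr9:89495689-89495718, minus strand: gatgaaacttgcCACGTGaaaatatagaaa
SEMA6D, chr15:47184049-47184078, plus strand: gagcggcaggagCACGTGggctgagtgggg
The first bases of these E-boxes lie 149, 45, 50 and 28 bases before the start sites of the windows. The log2 fold changes of the 4 genes were 0.51, -1.43, -0.14 and -0.53. A match is a stretch of letters and no measured binding, and binding by MYCN was not analysed here.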

How the data were processed

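RNA without ribosomal RNA had been sequenced from 3 control and 3 MYCN-induced SK-N-AS cultures. The authors deposited estimated counts, that is read pairs on the exons of each gene, not normalized, with a pair on several genes split in equal fractions. Per the file headers these came from featureCounts 1.6.4 without a strand option, on unique alignments, whereas the submitters' notes name version 1.5.1 and STAR 2.7.1a. The methods name GRCh38 and a strand option. Counts were used as deposited and rounded.

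Gene names came from GENCODE release 44 (99.65% of 60651 identifiers matched, 60 of 69 members with the same coordinates), and coordinates from the files. Conditions and replicate numbers came from the sample titles. The test was edgeR's quasi-likelihood test (version 4.0.16, R 4.3.3, TMM, no replicate block, Benjamini-Hochberg, threshold 0.05) on genes that reached 10 counts in 3 or more libraries, and it was checked on simulated counts. The standard error is the log2 fold change divided by the square root of F. TPM used the deposited exon lengths. Differences between replicates exceeded sampling noise (chi-square per gene from 12.2 to 150.6), and the biological coefficient of variation was 0.153.

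Members and lists were chosen with earlier results of these data known. By rule, 23 members were chosen to be given by library. These were the members past the threshold and the most abundant of each family by TPM. The 5 rises and 5 falls with the smallest p, among members averaging 1 CPM or more, were included too. Some others, such as SEMA3D, are also given by library, and the rest by counts, ranges or as partners of these. Of the pathway lists, genes past the threshold are named, and NEO1 is given beside DCC. Correlations between members were planned but not computed, since the 2 conditions form separate clusters. The alternatives were DESeq2 1.42.0, library size only, upper-quartile normalization, no count filter, a mean of at least 1 CPM, protein-coding genes only, the replicate block, and leaving out each library with the same genes tested. CircRNA counts and protein data were not analysed here. The adrenergic marker list as a whole is not reported here.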

Additional observations from a re-analysis of the deposited data

How the results depend on the processing

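MYCN stayed past the threshold under all 13 alternatives. With DESeq2, 13 members were lower and the pathway lists had 16 genes lower, against 8 and 8 with edgeR. With a mean of at least 1 CPM, the lists had 1 gene higher in place of 3. Leaving out 1 library at a time gave from 1 to 16 members lower, from 0 to 5 list genes higher and from 2 to 17 lower. The lowest counts came without control replicate 2 (and for list genes higher also without the other controls and MYCN-induced replicate 1), and the highest without MYCN-induced replicate 3. Fewer libraries leave fewer degrees of freedom in these fits, and the cause of the gain without MYCN-induced replicate 3 was not tested. No member was higher under any alternative.

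Among the 23 members chosen by rule to be given by library, only members not past the threshold changed sign. SEMA3D, given by library outside that rule, was at 0.09 without MYCN-induced replicate 3. SEMA4C was at -0.02 without control replicate 1, EPHB4 at -0.10 without control replicate 1 and -0.02 without MYCN-induced replicate 2, and SEMA4B at -0.04 without MYCN-induced replicate 3. ROBO1 was at -0.0047 with library size only, -0.001 with upper-quartile normalization and -0.03 without MYCN-induced replicate 3. With 1 library left out at a time, the log2 fold changes of these 4 ran from -0.02 to 0.26, -0.10 to 0.11, -0.04 to 0.36 and -0.03 to 0.08 for SEMA4C, EPHB4, SEMA4B and ROBO1. Over the 23 members chosen by rule, neither the direction nor the call changed in 245 of 299 values.

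With the replicate number as a block, 6 members were lower, beside 1.98% of all tested genes. SEMA3A (adjusted p = 0.0506), SEMA4F (0.0513) and NRP2 (0.0637) were lost and SLIT3 (0.0279) was gained. Deviations from the condition means had correlations of 0.31, 0.02 and 0.09 between libraries numbered 1, 2 and 3, and 3 of the 6 libraries correlated best with their own number. The mean was 0.14 for libraries with the same number and -0.08 for the others. The labels do not say that a number marks a shared batch, so the block was not used for the values of the report.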
